A study of Mus musculus with 8 samples.

Results

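Wild-type hippocampal progenitors were compared between day 4 and day 2 of differentiation, the interval in which cells 2 days out of growth factor became cells 4 days out. The members were all cells of the libraries labelled wild type at these days, 3511 at day 4 and 4098 at day 2, or 7609 of the 30408 cells in the 8 libraries of the series. Neural stem and progenitor cells were taken from the dentate gyrus of mouse embryos at embryonic day 18 and grown with EGF and FGF2. Withdrawal of both factors started differentiation, and libraries were made before it (day 0) and at days 2, 4 and 8. The embryonic age is the one in the labels, and the study's methods give a slightly earlier one. Both libraries carry the label C57BL/6J with a wildtype allele, and the protocol names the embryos as Kmt2d+/+ littermates of Kmt2d+/βgeo embryos. The second genotype, Kmt2d+/βgeo, carries the gene-trap allele Mll2Gt(RRt024)Byg and was used only for values set beside those of wild type. Embryos were not assigned to libraries in the labels. Wild type has 1 library per day, so within wild type there is no test of day, and a fit over both genotypes was not run. Time, culture and library preparation cannot be told apart, and the intervals below cover counting error only.

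EGF and FGF2 bind receptor tyrosine kinases and drive the Ras and MAP kinase cascade, whose readout includes the Etv transcription factors and the feedback inhibitors of the Sprouty and Spred families. In hippocampal progenitors these factors keep cells dividing and undifferentiated, and their removal lets cells leave the cycle and take up glial or neuronal programmes. Astrocyte differentiation in culture is known for gap junction, lipid transport and antioxidant genes, and dividing progenitors for high expression of the translation machinery.

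Values are mean normalised counts per cell, the deposited log2 values turned back to a linear scale, with every cell summing to 8707.145 over 9140 genes. They compare 1 gene between libraries, and 3′ tags do not scale with gene length. Median UMIs (unique molecular identifiers, each marking 1 captured RNA molecule) on these genes were 7299 per cell at day 2 and 7988 at day 4. They were 43.8% of the total UMIs of the library at day 2 and 45.3% at day 4, so every share of counts below leaves out the rest. In both libraries 4 cell barcodes occurred. Before any result, the day 4 libraries need a remark. Over the compared genes the SD of the log2 ratio between the libraries labelled Kmt2d+/βgeo and wild type was 0.109 at day 4, against 0.331, 0.341 and 0.461 at days 0, 2 and 8. No gene differed by a log2 ratio of 1 or more between the day 4 libraries, against 111, 170 and 312 at the other days. The 2 day 4 libraries had 2 cell barcodes in common. Kmt2d itself had a mean of 0.157, 0.197, 0.237 and 0.241 in wild type from day 0 to day 8, and of 0.193, 0.171, 0.295 and 0.29 in Kmt2d+/βgeo. Reads from the 3′ end need not cover the part that the trap interrupts, so these levels are no check of genotype. Whether both day 4 libraries carry the right genotype label was not tested. Values of the Kmt2d+/βgeo libraries are given beside gene list medians printed here where the medians differ by 0.3 or more or in sign, and with day 4 libraries this alike, exchanging them is little independent support.

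Of 7529 genes with a mean of at least 0.1 in either library, 224 were at least 2-fold higher at day 4 (log2 ratio of 1 or above) and 182 at least 2-fold lower. These are 2.98% and 2.42% of the genes compared, the background for every count below. A gene could pass this minimum only through the library where it is higher. Among called genes this holds for Atad2, Rbfox3, Pltp, Osmr, Itga7, Map1a, Fn1, Gria1 and Ifit2 on the higher side. On the lower side it holds for Foxp2, Spred3 and Kcnma1. List counts that rest on such genes depend on the minimum. The median log2 ratio was 0.10 with an SD of 0.50, and 60.6% of genes lay above 0. With ribosomal protein and translation factor genes left out of the totals, chosen after seeing the data, the median was 0.012. How many genes of a list lie above 0 thus depends on the scaling. Centred on the median, the counts became 177 and 239, so the higher share of the called genes went from 55.2% to 42.5% and which side holds more genes depends on the scaling. As differences of mean log2 values only 15 were called higher and 20 lower. In 16 genes the ratio was -2 or below and in 21 it was 2 or above. With the Kmt2d+/βgeo day 4 library in place of the wild-type one, 207 of the 224 and 146 of the 182 were again past the threshold. Between the Kmt2d+/βgeo libraries of days 2 and 4, 151 of the 224 and 115 of the 182 were past the threshold. On the same side of 0 lay 217 and 180. With day 4 libraries so alike, the pairs differ mainly in their day 2 libraries. These counts too are little independent support. The genes nearest the thresholds were Pygb (1.79 to 3.58) just inside and Rpgr (0.0754 to 0.151) just outside on the higher side, and Hdac5 (0.688 to 0.344) just inside and Snrpb2 (1.69 to 0.846) just outside on the lower side.

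**Figure D1:**
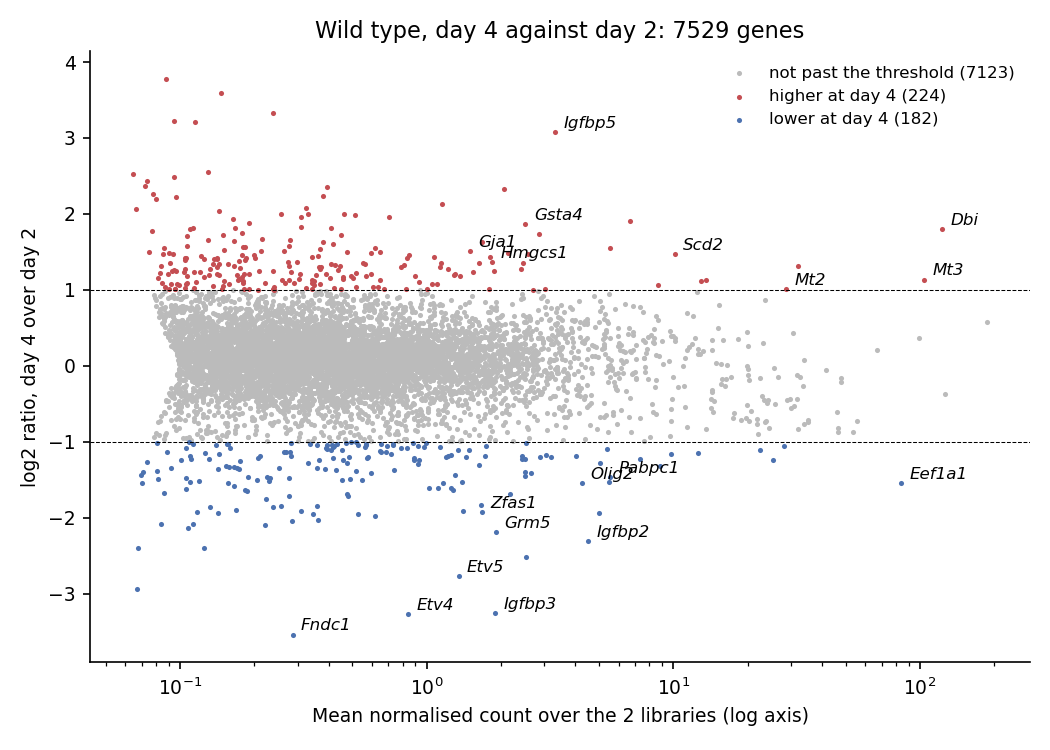
Each point is 1 of the 7529 genes compared, with its mean normalised count over both libraries on a log axis and its log2 ratio, wild type day 4 over day 2. The dashed lines mark ratios of 1 and -1, with 224 genes above (red) and 182 below (blue). Dbi, Mt3 and Eef1a1 are called genes of very high level.

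Growth factor response genes were called in the lower direction only. Of 30 genes in the list of FGF, EGF and MAP kinase response genes, 15 were in the matrix and 14 were compared, of which 6 were past the threshold lower, 0 were higher, and the median was -0.98 (-0.14 as a difference of mean log2 values). Etv4 and Etv5 are ETS-family transcription factors that act at the end of the FGF cascade. Etv4 (ENSMUSG00000017724, chromosome 11, 101769742-101785371, GRCm38) had a mean of 1.52 at day 2 and 0.157 at day 4, 9.66-fold lower, with a ratio of summed UMIs of -3.36 to -3.11 on the log2 scale (95% counting interval). Intervals beside other folds are for the same ratio of summed UMIs, which gives deep cells more weight than the mean over cells does, so a fold of means can lie outside them. Etv5 (ENSMUSG00000013089, chromosome 16, 22381309-22439719) had 2.35 and 0.346, 6.81-fold lower (-2.83 to -2.66). The share of cells with an Etv5 UMI, after thinning every cell to 3000 UMIs, went from 49.5% to 9.54%, and without thinning the shares were 75.7% and 20.8%. At day 2 the median cell held 1.78 normalised counts of Etv5 and at day 4 it held 0, and 0.37% of day 4 cells lay above the 90th percentile of day 2. Etv1, another ETS-family factor, went from 1.89 to 0.618 (log2 ratio -1.61).

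Of 4 compared feedback inhibitors of the Sprouty and Spred families, 3 were called lower. Spred2 went from 0.344 to 0.102 (-1.75), Spred3 from 0.104 to 0.0434 (-1.26) and Spry2 from 1.24 to 0.597 (-1.05), while Spred1 missed the threshold at 1.81 to 0.912. The receptors were divided: Fgfr1 was 1.82 and 0.925, Fgfr2 0.27 and 0.271, and Fgfr3, a receptor of the astrocyte lineage, 0.503 and 0.891 (ratios -0.98, 0.00 and 0.82). Egfr, the EGF receptor, had 2.63 and 2.69, a ratio of 0.03. Within single cells the list summed to a median of 5 UMIs at day 2 (10th to 90th percentile 2 to 9) and 3 at day 4 (1 to 6), and 79.2% of day 4 cells lay below the day 2 median.

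The low Etv level was not reached by day 2. Etv5 had means of 3.6, 2.35, 0.346 and 0.172 at days 0, 2, 4 and 8 in wild type, and Etv4 1.13, 1.52, 0.157 and 0.0333. Per thinned wild-type cell, the whole growth factor response list had means of 4.93, 5.51, 3.06 and 2.29 UMIs at these days. The list was thus not lower at day 2 than before withdrawal. In Kmt2d+/βgeo, Etv5 went from 2.24 at day 2 to 0.341 at day 4.

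**Figure D2:**
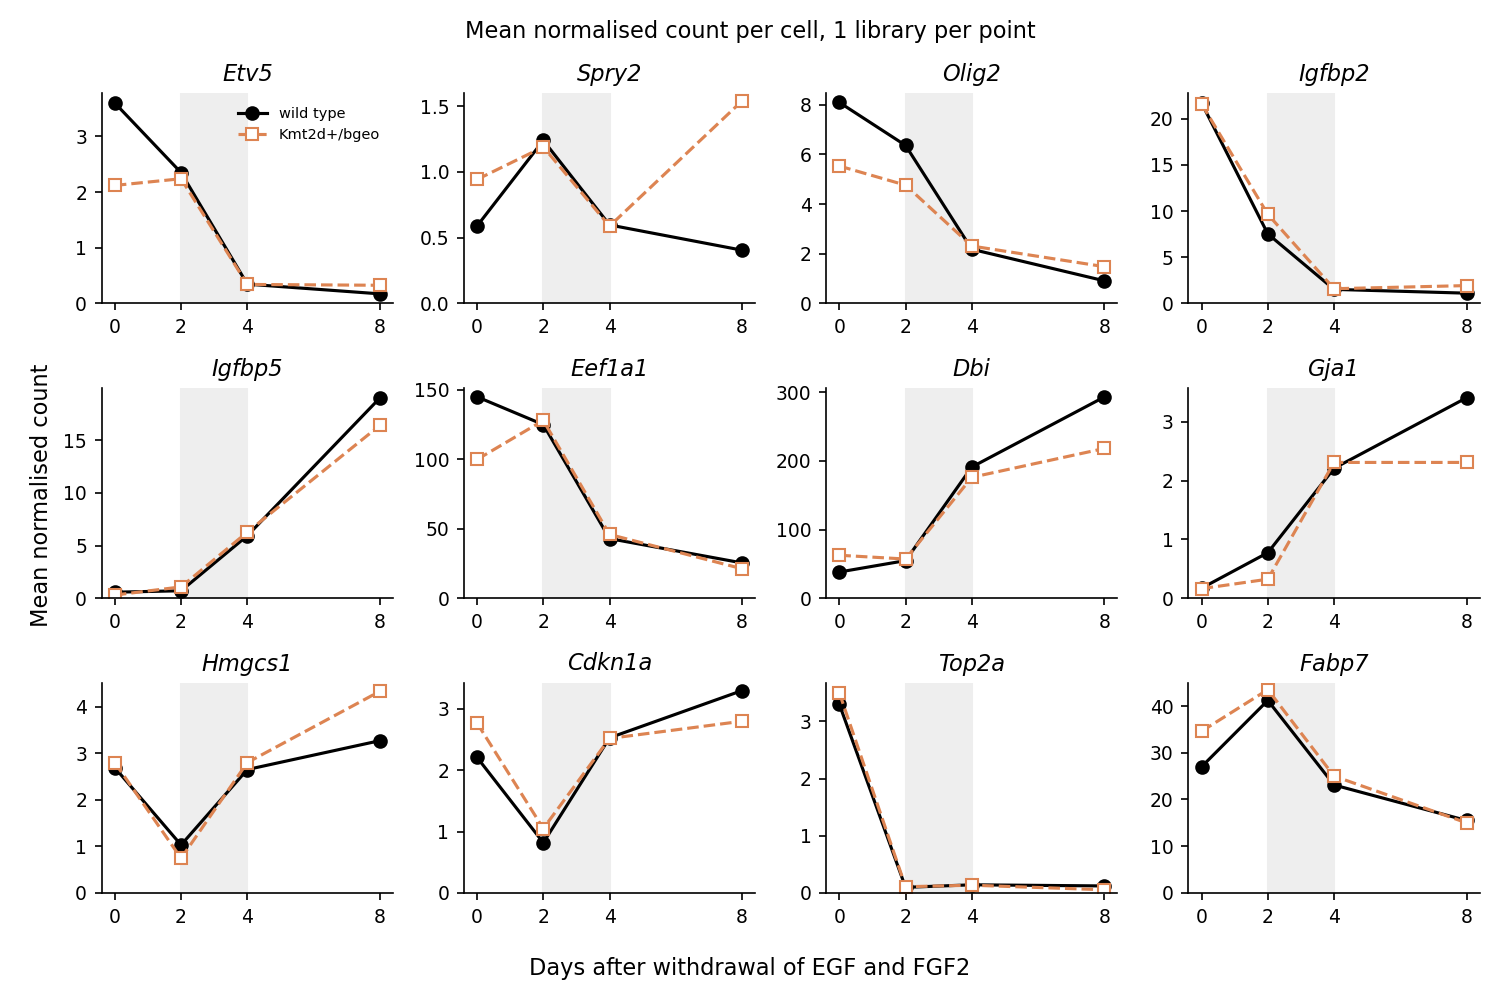
Mean normalised count per cell of 12 genes at days 0, 2, 4 and 8, with 1 library per point, wild type in black circles and Kmt2d+/βgeo in open squares; the grey band marks the interval compared. Etv5 was at 2.35 in wild type at day 2 and at 0.346 by day 4, Hmgcs1 and Cdkn1a were lowest at day 2, and the points of both genotypes almost coincide at day 4.

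Genes named for insulin-like growth factors or their signalling were called in both directions. This list of 9 compared genes was added after values were seen, with 4 lower, 1 higher and a median of -0.73. Igfbp5 (ENSMUSG00000026185, chromosome 1, 72857932-72874884), a secreted protein that binds insulin-like growth factors, went from 0.703 to 5.93, 8.43-fold higher (3.0 to 3.12), the highest ratio among genes with a mean of at least 0.5. Its thinned share of cells with a UMI went from 16.9% to 61.4% (unthinned 32.7% and 77.1%), and 60.4% of day 4 cells exceeded the 90th percentile of day 2. At day 8 its mean was 19.

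Other binding proteins of the same family went the opposite way. Igfbp3 (ENSMUSG00000020427, chromosome 11, 7206086-7213923) was 3.44 at day 2 and 0.36 at day 4, 9.57-fold lower (-3.38 to -3.21). Igfbp2 was 7.53 and 1.52, 4.95-fold lower, after 21.7 at day 0. The receptor Igf1r was 1.32 and 0.628 (-1.08), and the adaptor of the insulin receptor Irs2 0.673 and 0.292 (-1.20).

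Most ribosomal protein genes lay below 0, but few reached the threshold. Of 44 cytosolic ribosomal protein genes compared, 39 lay below 0, 1 was past the threshold (Rpl17, -1.17), a share near the 2.42% of all genes, 0 were past it upward and the median was -0.54. Summed over the list the mean was 1159 normalised counts per cell at day 2 and 828 at day 4, between 1664 at day 0 and 639.8 at day 8. The share of the list in the normalised counts of the genes in the matrix went from 13.3% to 9.52%. Large-subunit genes such as Rpl23 (60.1 to 32.9) and Rpl5 (5.82 to 2.98) and small-subunit genes such as Rps14 (28.8 to 15.4) were among the lower ones. The 5 genes above 0 were Rpl41 (61.8 to 71.5), Rps29, Rpl38, Rpl7l1 and Rps27l, the last also a p53 target. In thinned cells the list gave a median of 402 UMIs at day 2 (10th to 90th percentile 287 to 512) and 283 at day 4 (213 to 364), and 52.5% of day 4 cells lay below the 10th percentile of day 2. Ribosomal protein genes and Eef1a1 have many near-identical processed pseudogenes, so their counts depend on how the authors' counting shared reads among copies.

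Translation factors showed a more selective pattern. Of 50 compared genes of initiation and elongation, a list added after values were seen, 6 were lower and 1 was higher with a median of -0.07, near 0. The list also holds regulators of the factors, such as Eif2ak2, Eif2ak4 and Eef2k, so its counts and median are not those of the factors alone. The lower members included Eef1a1, the most abundant of the list. Eef1a1 (ENSMUSG00000037742, chromosome 9, 78478449-78489151), which brings aminoacyl-tRNA to the ribosome, went from 125 to 42.9, 2.91-fold lower by cell means, with a ratio of summed UMIs of -1.59 to -1.57 on the log2 scale against -1.54 for the means. Its 10th percentile at day 2 was 84.2 and its 90th percentile at day 4 was 66.3, so the central ranges of the cells did not overlap. The poly(A)-binding protein Pabpc1 went from 8.14 to 2.94 (-1.47).

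The initiation factors lay on both sides of 0, and 4 were called lower. Eif4b went from 3.86 to 1.45 (-1.41), Eif3e from 7.17 to 2.94 (-1.28) and Eif2a from 1.9 to 0.702 (-1.43). Eif3m was the fourth. Eif4e, which binds the mRNA cap, was 0.963 and 1.13, and Eif4g2 5.56 and 6.74. Eif2ak2, an interferon-inducible kinase that restrains initiation, was the one member past the threshold upward (0.241 to 0.606, 1.33). Eef1a1 held 125 of the 263 normalised counts of the list at day 2. Per thinned cell the list gave a median of 91 UMIs at day 2 (10th to 90th percentile 67 to 115) and 51 at day 4 (38 to 67), with 89.5% of day 4 cells below the 10th percentile of day 2.

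Of 8 long noncoding RNAs compared, 3 were past the threshold lower and 0 higher. Zfas1, which hosts small nucleolar RNAs, went from 2.65 to 0.694 (-1.93, thinned share 56.3% to 19.2%), Pantr1 from 3.66 to 1.34 (-1.45) and Epb41l4aos, an antisense transcript, from 0.866 to 0.324 (-1.42). Snhg8, also a small nucleolar RNA host, had 0.791 and 0.399 (-0.99), but between the Kmt2d+/βgeo libraries its ratio was -0.11. The median of the list was -0.56 in wild type and 0.10 in Kmt2d+/βgeo. Outside the list, the transcript 2410006H16Rik went from 7.96 to 2.07 (-1.94).

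Messages of the translation machinery are known to begin with a run of pyrimidines. Promoters were read from RefSeq sequence (250 bases before to 50 after the start, GRCm38.p6), since most ribosomal protein genes lay on the same side of 0. A run of a C and at least 6 further C or T bases was sought on the transcribed strand within 50 bases of the start. The run was found in 29 of the 33 ribosomal protein genes with an entry (87.9%). On the translation factor list, regulators included, 21 of 39 held it (53.8%), and 44.6% of all 6062 genes with an entry did. It was found in 52.7% of genes called lower and 46.6% of genes called higher. In some of the 29 the run lies before the start and so outside the message, as in Rpl5, Rps7 and Rps27l. The sequences shown are those of the 4 genes with the lowest ratios among those whose run begins within 5 bases of the start and ends within the stretch shown, 30 bases before to 20 after the start with the run in capitals, at chr7:45128726-45128775 (- strand), chr4:86857348-86857397 (- strand), chr7:45718041-45718090 (+ strand) and chr14:18270967-18271016 (- strand).
Rpl13a: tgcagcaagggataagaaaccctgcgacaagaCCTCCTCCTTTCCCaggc
Rps6: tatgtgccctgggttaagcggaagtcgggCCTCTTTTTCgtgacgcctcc
Rpl18: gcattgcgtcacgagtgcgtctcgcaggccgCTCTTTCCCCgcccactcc
Rpl15: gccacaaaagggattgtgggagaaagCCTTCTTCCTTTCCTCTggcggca
The ratios of these genes were -0.94, -0.79, -0.73 and -0.69. Rps27l and Rpl38, which hold such a run as well, had ratios of 0.50 and 0.15.

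Antioxidant and metal-binding genes were called in the higher direction only. Of 27 genes in the list, 17 were compared, 6 were past the threshold upward, 0 downward, 16 lay above 0 and the median was 0.80. Gsta4, a glutathione transferase that detoxifies lipid aldehydes, went from 1.08 to 3.95 (1.87), with a thinned share of 28.8% to 65.9%. Gclc, the catalytic subunit of the rate-limiting enzyme of glutathione synthesis, went from 0.339 to 0.959 (1.5). The peroxiredoxins Prdx6 (18.4 to 45.9, 1.32) and Prdx1 (8.49 to 18.6, 1.13) reduce peroxides, and Prdx6 reached 125 at day 8.

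Metallothioneins bind zinc and copper. Mt3 went from 65 to 143 (1.13) and Mt2 from 19 to 38.3 (1.01). The exception was Txn1, the cytosolic thioredoxin, at 17 and 12.3 (-0.47), although its reductase Txnrd1 went from 0.684 to 1.33. Between the Kmt2d+/βgeo libraries Txn1 lay on the other side of 0 (0.54). Per thinned cell the list gave a median of 48 UMIs at day 2 (10th to 90th percentile 21 to 84.3) and 98 at day 4 (40 to 157), and 62% of day 4 cells exceeded the 90th percentile of day 2.

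Antioxidant promoters are known for the element TGACNNNGC, read here on both strands over the whole window. It was found in 6 of 13 genes of the list with an entry (46.2%), against 17.2% of all 6062 and 21.3% of the genes called higher. The matches of the 3 members with the highest ratios among those 6 are in capitals within 50 bases, at chr4:116685445-116685494 (+ strand), chr8:94172518-94172567 (+ strand) and chr10:82859093-82859142 (+ strand). In Prdx1 and Txnrd1 the match is on the other strand, so the capitals read as its reverse complement.
Prdx1: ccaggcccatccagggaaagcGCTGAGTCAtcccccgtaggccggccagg
Mt2: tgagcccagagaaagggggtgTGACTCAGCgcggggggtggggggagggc
Txnrd1: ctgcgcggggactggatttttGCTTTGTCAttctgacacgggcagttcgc
Gsta4, Prdx6 and Gclc had no entry among the promoters.

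**Figure D3:**
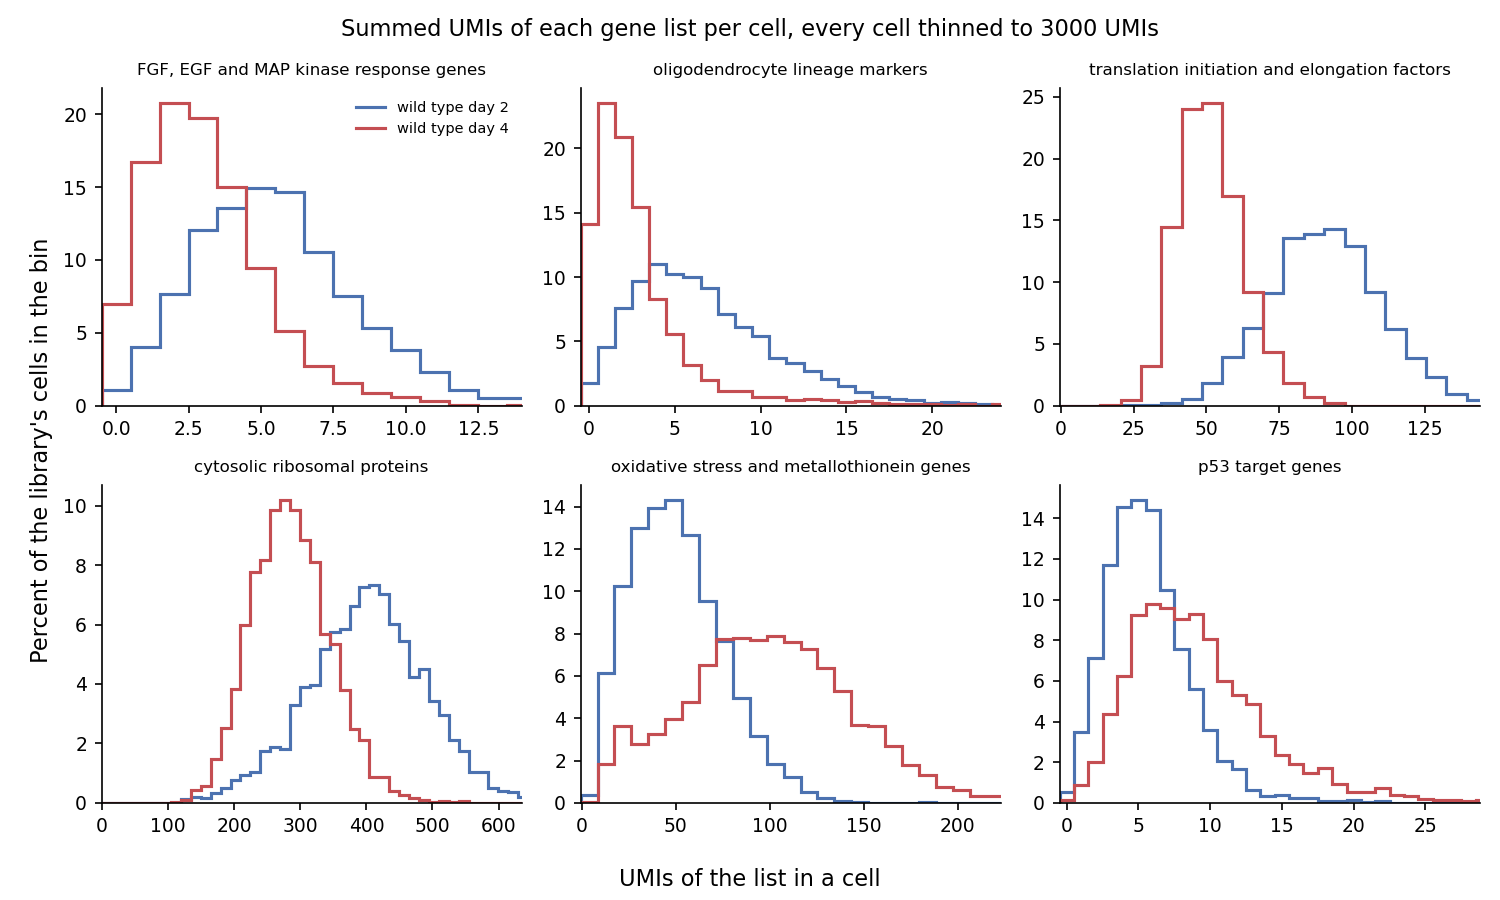
Each panel gives the summed UMIs of a gene list per cell (horizontal axis, every cell thinned to 3000 UMIs) against the percent of the library's cells in each bin, day 2 in blue and day 4 in red. The translation factor curves are nearly apart (89.5% of day 4 cells under the day 2 10th percentile), whereas the p53 target curves overlap widely. Eef1a1 is the most abundant gene of the translation factor list, whose median log2 ratio was -0.07.

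Most lipid genes compared lay above 0, 16 of 18 in sterol synthesis and 14 of 19 in lipoprotein and fatty acid genes. Of all genes compared, 60.6% lay above 0. Above the median of all genes lay 16 of the 18 and 12 of the 19, the second nearer the background. Of 18 compared genes of cholesterol synthesis and uptake, 16 lay above 0, 3 were past the threshold upward, 0 downward and the median was 0.71. Hmgcs1, which makes HMG-CoA, went from 1.03 to 2.65 (1.36), Msmo1, a sterol demethylase, from 0.462 to 1.16 (1.33) and Idi1 from 0.161 to 0.322 (1.00). The regulator Srebf2 had 0.377 and 0.597. The list had summed to 14.1 at day 0, so the day 2 value of 6.3 was the low point of the wild-type course and day 4, at 10.5, lay between. The sterol element TCACNCCAC, on either strand, was found in 1 of 15 promoters of the list and in 1.29% of all, and that one was Hmgcs1 (chr13:119690193-119690242 (+ strand), element in capitals).
Hmgcs1: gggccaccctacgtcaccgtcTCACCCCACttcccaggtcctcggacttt

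Genes of fatty acid synthesis and lipid transport held 4 called genes. Of 19 compared, 4 were past the threshold upward and 0 downward, with a median of 0.33. As differences of mean log2 values 1 was called upward, with a median of 0.07. Scd2, the stearoyl-CoA desaturase of brain, went from 5.37 to 14.9 (1.47), Acsl6 from 0.101 to 0.266 (1.40), Pltp from 0.0753 to 0.153 (1.02) and the lipogenic regulator Srebf1 from 0.419 to 0.856 (1.03). Apoe, the main apolipoprotein of astrocytes, was 149.8 and 224 (0.58), below the threshold. Dbi (ENSMUSG00000026385, chromosome 1, 120113280-120121078), the acyl-CoA binding protein, went from 54.7 to 191, 3.49-fold higher by cell means, with a ratio of summed UMIs of 1.75 to 1.76 on the log2 scale against 1.80 for the means, and 90.2% of day 4 cells exceeded the 90th percentile of day 2.

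Lysosome genes lay mostly below 0. Of 27 compared, 23 lay below 0, 5 were past the threshold downward, 0 upward, and the median was -0.56. The proteases Ctsc (0.807 to 0.285, -1.5) and Lgmn (1.67 to 0.725, -1.20) and the lipid hydrolases Asah1 (2.35 to 1.13, -1.05) and Lipa (0.485 to 0.235, -1.05) were called, as was Ctsa. The membrane proteins Cd63 (19.9 to 19.8) and Lamp2 (1.62 to 1.58) had nearly equal means, and Tfeb and Tfe3, transcription factors of lysosome genes, had ratios of 0.74 and 0.55. The element CACGTG was found in 6 of 21 promoters of the list (28.6%) and in 12.2% of all.

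**Figure D4:**
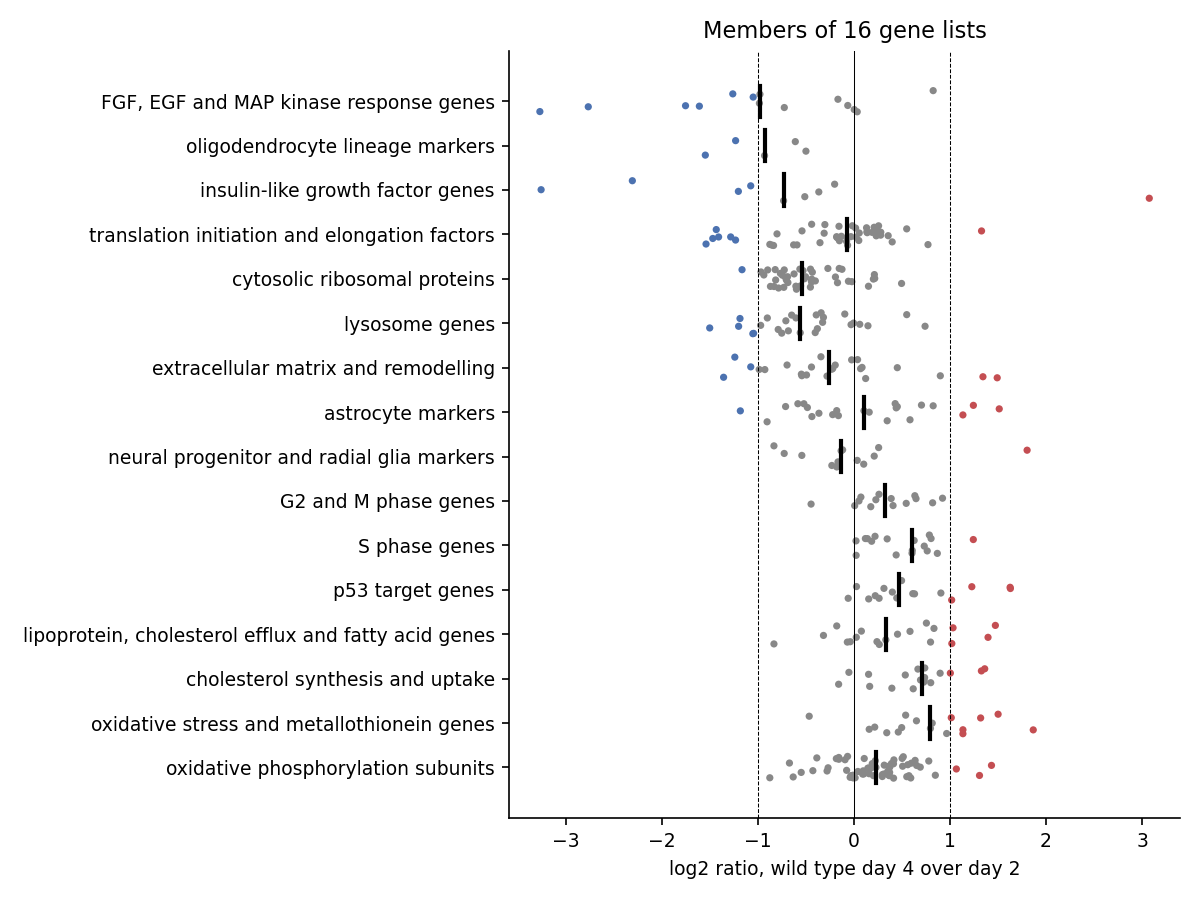
Each point is the log2 ratio, wild type day 4 over day 2, of 1 compared member of 16 gene lists, in red or blue past the threshold of 1 in either direction (dashed lines), with the black bar at the median of the list. The median was -0.98 for the growth factor response genes, -0.93 for the oligodendrocyte lineage markers and 0.80 for the oxidative stress genes, against 0.10 over all genes, and the order of the lists depends on the setting.

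Markers of the cell types were examined against the label. Of 24 progenitor and radial glia markers 13 were compared, and Vim (50.5 to 45), Fabp7 (41.2 to 23.1), Ptprz1 (16.8 to 14.8) and Ptn (69.3 to 41.9) had means above 10 in both libraries. Sox2, Nes and Hes5 were not analysed here, nor were the astrocyte markers Gfap and Aqp4. Fabp7 and Ptn had ratios of -0.83 and -0.73, and the median of the group was -0.13 in wild type but 0.16 between the Kmt2d+/βgeo libraries. The summed level went the other way from the wild-type median, from 259 to 345. For the thinned sum, 87.5% of day 4 cells lay above the day 2 median. Dbi, with 54.7 and 191, was the only marker of this list past the threshold and rose by more than the sum did. The summed level of the other markers was lower at day 4, and 8 of the 13 markers lay below 0.

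Astrocyte markers lay on both sides of 0. Of 23 compared, 3 were past the threshold upward, 1 downward, 12 lay above 0 and the median of 0.10 equalled that of all genes. As differences of mean log2 values 0 were called in either direction, with a median of 0.12. Gja1 (ENSMUSG00000050953, chromosome 10, 56377330-56402513), the gap junction protein connexin 43, went from 0.774 to 2.21 (1.51), Slc39a12, a zinc transporter, from 0.124 to 0.294 (1.24) and Aldh1a1 from 0.163 to 0.357 (1.13). The glutamate transporter Slc1a3 (23.3 to 14.2, -0.71), the glutamine synthetase Glul (7.35 to 4.9, -0.58) and Acsbg1 (3.39 to 1.49, -1.18) lay lower. In the Kmt2d+/βgeo libraries Slc1a3 and Glul lay on the other side of 0 (0.09 and 0.70), and the median of the list was 0.65. The summed level of the list was 428 at day 2 and 476 at day 4, after 69.5 at day 0. Apoe, a member with a ratio of 0.58, rose by more than the sum did. The summed level of the other markers was lower at day 4 than at day 2.

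Few oligodendrocyte lineage markers could be compared. All 5 compared of 21 listed lay below 0, with 2 past the threshold and a median of -0.93 (-0.62 between the Kmt2d+/βgeo libraries). Olig2 (ENSMUSG00000039830, chromosome 16, 91225457-91228677), the lineage factor, went from 6.36 to 2.18, 2.93-fold lower by cell means, with a ratio of summed UMIs of -1.72 to -1.63 on the log2 scale against -1.55 for the means. Its thinned share went from 66.7% to 30.1%, a difference of -36.5 points (95% Newcombe interval -38.6 to -34.4), with 81.4% and 46.2% unthinned. Cspg5, a membrane proteoglycan, went from 10.3 to 4.36 (-1.23). Sox10, Pdgfra and Mbp were not analysed here, so the result rests on few defining genes.

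Few neuronal genes could be compared. Of 31 neuron markers, 10 were in the matrix and 6 compared, with a summed level of 6.16 at day 2 and 7.03 at day 4. Rbfox3, the neuronal nuclear protein NeuN, went from 0.0501 to 0.176 (1.81, 172 and 535 UMIs), with a thinned share of 1.59% to 5.35%. Map2, a dendritic protein, was 3.22 and 3.84. The other ratios were 0.66 for Stmn3, -0.14 for Prox1, -0.23 for Nsg2 and -0.87 for Gad1, the GABA-synthesising enzyme, so 3 of the 6 lay above 0, with a median of 0.06. Dcx, Tubb3 and Stmn2 were not analysed here. Of 14 endothelial and mural markers none was in the matrix, of 15 microglia markers 1 was, and of 11 ependymal and choroid plexus markers 2 were. Those were Dynlrb2 (0.0992 to 0.124, 0.32) and Pltp (0.0753 to 0.153, 1.02), the second also a lipid transfer gene. Absence from the matrix does not show that a gene was not expressed. The matrix held 43.8% of the UMIs at day 2 and 45.3% at day 4, and 23 of 33 astrocyte markers. The part of RNA from those other cell types in these results was not tested.

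Cell cycle genes were below their day 0 levels at both days. Top2a, a topoisomerase of mitotic cells, had 0.0973 and 0.142 normalised counts, against 3.3 at day 0, and its thinned share was 1.24% to 1.88%. All 17 S phase genes lay above 0, 15 of them above the median of all genes. Their median was 0.60 (0.27 between the Kmt2d+/βgeo libraries). Of these 1 was past the threshold, Atad2 (0.057 to 0.135), which reached the minimum mean at day 4 only. The median of 14 G2 and M phase genes was 0.32 with 0 past the threshold. The S phase list summed to 3.68 at day 2 and 5.14 at day 4, against 11.6 at day 0, and the G2 and M phase list to 13.5 and 17.2, against 31.2. As differences of mean log2 values both medians were 0.05.

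Of 13 cyclins, CDKs and CDK inhibitors compared, 2 were past the threshold upward and 0 downward, with 6 above 0, 7 below and a median of -0.10. Cdkn1a, the CDK inhibitor p21, went from 0.819 to 2.53 (1.63), with a thinned share of 16.6% to 39%, and Ccng1 from 0.664 to 1.34 (1.02). Both are p53 targets, and in a list of 16 such genes added after values were seen, 15 lay above 0 and 4 were past the threshold (also Aen and Sesn2), with a median of 0.47. Mdm2, another p53 target, had 0.47 and 0.548 (0.22), and Trp53 itself 0.693 and 0.578. The other CDK inhibitors Cdkn1b, Cdkn2a and Cdkn2c had ratios of -0.10, 0.37 and -0.18.

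Among glial and neurogenic transcription factors the called genes were all lower. Of 35 compared, 4 were past the threshold downward and 0 upward, with a median of -0.17 in wild type and 0.18 in Kmt2d+/βgeo. The called genes were Olig2, Klf3 (1.31 to 0.555), Foxp2 (0.152 to 0.0671) and Rora (1.18 to 0.582). Zbtb20, a factor of hippocampal and astroglial development, came closest on the other side, from 8.42 to 16.6 (0.98), with 58.2% of day 4 cells above the 90th percentile of day 2. Sox9, which sets glial fate, was 2.93 and 3.97 (0.44), and Nfia and Nfib had ratios of 0.19 and 0.33.

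Extracellular matrix genes lay mostly below 0. Of 24 matrix genes 3 were lower, among them Serpine2, a protease inhibitor, from 35.7 to 15.1 (-1.24), and 2 higher, among them Fn1, fibronectin, from 0.0773 to 0.196. The brain proteoglycan Bcan went from 12.7 to 6.69 (-0.93). Of 64 subunits of oxidative phosphorylation 46 lay above 0 and 42 above the median of all genes, with a median of 0.23. Past the threshold upward were Cox6b2 (0.98 to 2.64), Ndufs5 (0.649 to 1.61) and Uqcrq (5.57 to 11.7), and 0 were downward.

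Genes with large changes outside these lists were found at both ends. Fndc1 (0.527 to 0.0453) had the lowest ratio among genes with a mean of at least 0.5, -3.54, and Gmpr, a purine reductase, went from 4.3 to 0.749 (-2.52). Nell2 went from 2.22 to 0.59 (-1.92), while its ratio between the Kmt2d+/βgeo libraries was -0.42. Genotype and library cannot be told apart in this difference. Upward, Rida went from 0.688 to 3.44 (2.32), Tspan15 from 0.428 to 1.87 (2.13), Ecrg4 from 2.82 to 10.5 (1.90) and Pik3r3, a regulatory subunit of PI3 kinase, from 0.129 to 0.659 (2.36). Tmem132b was 0.315 and 0.925 in wild type (1.56) but 0.0267 and 0.966 in Kmt2d+/βgeo.

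The share of cells with a UMI was compared as a second measure. After thinning, 37 genes were at least 20 points higher at day 4 (0.491% of those compared) and 50 at least 20 points lower (0.664%). The widest differences upward were those of Igfbp5, Sfxn5, a mitochondrial carrier (31.8% to 71.4%), and Ecrg4 (44.9% to 83%), and downward those of Igfbp3 (52.6% to 10.7%), 2410006H16Rik (89.8% to 48.6%) and Etv5. Srsf3, a splicing factor, had 33.8% to 68.9% and Higd1a, a mitochondrial protein of the hypoxia response, 32.6% to 65.5%. A background share from free RNA was not measured, since the comparison names no cells that should lack these genes.

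**Figure D5:**
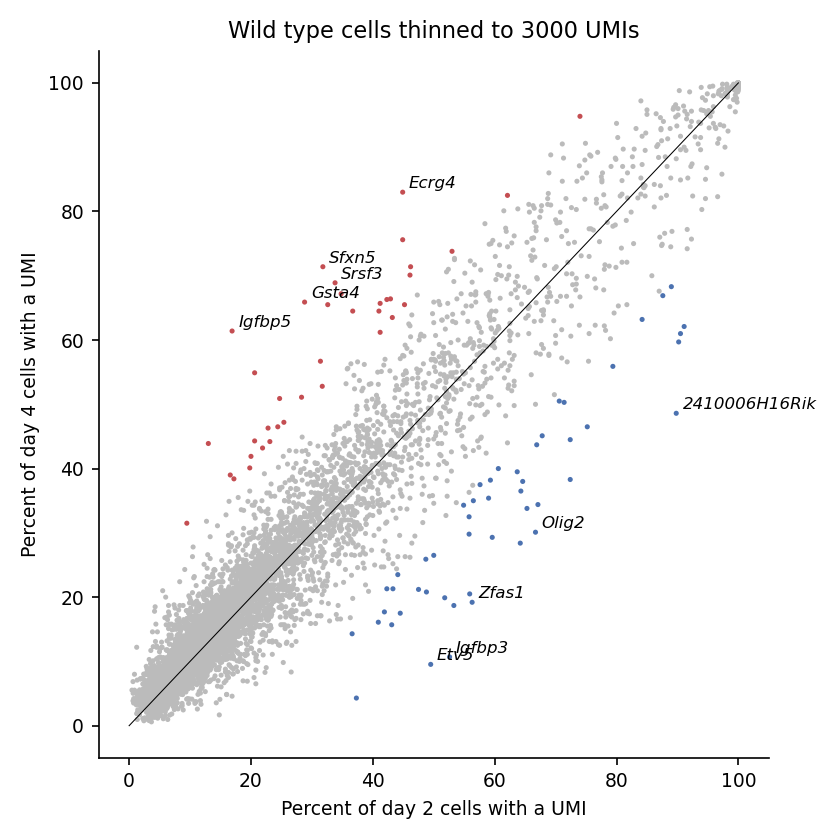
Each point is 1 of the 7529 genes, with the percent of thinned cells holding a UMI at day 2 (horizontal) and day 4 (vertical) and the line of equal shares. Colour marks the 37 genes at least 20 points higher (red) and the 50 at least 20 points lower (blue), with the 5 widest in each direction named, Igfbp5 at the upper left and Etv5 and Igfbp3 at the lower right.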

How the data were processed

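Single-cell 3′ libraries (10x Chromium v3) of cultured hippocampal progenitors were analysed from the wild-type day 2 and day 4 samples, with the other 6 of the 8 libraries for values set beside them. Per the study's methods and the submitters' processing notes, the authors counted spliced molecules with Alevin (Salmon 1.3.0, GRCm38), removed cells that were outliers in UMIs, genes, mitochondrial share or doublet score, and left out mitochondrial and rarely seen genes. They integrated the samples with Seurat 3.2.2 for their embedding. The deposited values sum to the same total in every cell, as library-size scaling leaves them. The deposited matrix holds log2 values after the authors' scaling of each cell to its library size with 1 added, and the deposited cell table holds each cell's total UMIs as the authors' estimated counts.

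Values were turned back to normalised counts. In each cell the most frequent value above 0 was used as 1 UMI, which put 86.8% of values within 0.01 of a whole number, and the estimated counts so obtained were rounded before thinning and summing. No cell of either library held under 3000 UMIs. Depth was 73327745 total UMIs at day 2 and 66090942 at day 4. Genes with a mean of at least 0.1 in either library were compared by the log2 ratio and counted at 1 or above and -1 or below. Ratios of summed counts have exact conditional Poisson 95% intervals and shares exact binomial or Newcombe intervals. With 1 library per group no test was run, and cells were not used as replicates.

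Members and gene lists were chosen with earlier results of these data known. Named genes were the 20 highest and 20 lowest ratios at a mean of at least 0.5, up to 5 called members per direction and 3 further abundant members per list, the 10 widest share differences per direction, and Kmt2d, Top2a, Apoe, Gja1, Sox9, Olig2, Fabp7, Vim, Map2 and Rbfox3. Other list members, the 3 lists said to be added and the 4 promoter motifs were chosen after values were seen. Promoters came from RefSeq (GRCm38.p6), matched by symbol for 6062 of the 7519 compared genes with a unique symbol. Python 3.11.15 with numpy 2.4.6, scipy 1.17.1, pandas 2.3.3 and matplotlib 3.10.9 was used. The procedure was tested on simulated data. Some genes are not reported here one by one but are included in the counts.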

Additional observations from a re-analysis of the deposited data

Results flagged for a closer look

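Named genes past the threshold in wild type were set beside the same days in the libraries labelled Kmt2d+/βgeo, and Ifit2 and Pltp lay on opposite sides of 0. Ifit2, an interferon-induced gene, had a log2 ratio of 1.34 in wild type (0.0886 to 0.224) and -0.29 in Kmt2d+/βgeo (0.246 to 0.2). Pltp, the phospholipid transfer protein, had 1.02 in wild type (0.0753 to 0.153) and -0.14 in Kmt2d+/βgeo (0.153 to 0.139). With 1 library per genotype and day the difference was not tested. Over all compared genes, 9 of those past the threshold in wild type had the opposite sign in Kmt2d+/βgeo, and 0 were past it in opposite directions in both.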

How the results depend on the processing

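The 224 genes higher and 182 lower at day 4 became 15 and 20 as differences of mean log2 values, 90 and 110 at a minimum mean of 0.5 (fewer genes tested), and 347 and 216 without a minimum (more low genes tested). They became 629 and 312 when each gene lost its highest 5% of cells, with 7485 genes still compared. That setting drops 5% of all cells of a library, so a gene seen in few cells loses most or all of its counts. Between the Kmt2d+/βgeo libraries the counts were 405 and 260. The cause of these shifts was not tested. Thinning, scaling by total UMIs, centring, totals without the 20 leading genes and the removal of the 5% of cells with most UMIs gave between 177 and 253 genes higher and between 166 and 239 lower. Totals without ribosomal protein and translation factor genes, chosen after seeing the data, gave 185 and 231, with a median log2 ratio of 0.012. List medians moved too. At a minimum mean of 0.5 those of the oligodendrocyte markers, long noncoding RNAs and growth factor response genes were -1.23, -1.20 and -0.98, and as differences of mean log2 values they were -0.39, -0.15 and -0.14, against -0.51 for ribosomal protein genes. On that last scale the cholesterol, lysosome, p53 target and S phase lists had medians of 0.12, -0.24, 0.21 and 0.05 with 0 genes called, the growth factor response list kept 1 of 6 calls and the oxidative stress list had 5. No called gene changed sign in wild type under these settings. Between the Kmt2d+/βgeo libraries the named genes Ifit2 (-0.29) and Pltp (-0.14) did. No paired analysis was possible because the wild-type groups compared hold 1 library each and so share fewer than 2 replicate numbers. A fit of day with genotype as a term, over the libraries of both genotypes, was not run. Depth limits genes near a mean of 0.1, such as Spred3 with 398 and 142 UMIs.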

Other observations

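Genes of glutamate and GABA handling were split. Of 24 compared, 6 were past the threshold upward and 2 downward, with a median of 0.10. Between the Kmt2d+/βgeo libraries the median was 0.61, and as differences of mean log2 values 0 were called upward and 1 downward. Grm5, the metabotropic glutamate receptor of immature astrocytes, went from 3.13 to 0.684 (-2.19, thinned share 53.3% to 18.7%). Gabrb1, a GABA-A receptor subunit, went from 0.451 to 1.21 (1.42), Abat, which breaks down GABA, from 0.916 to 2.34 (1.35) and the AMPA receptor subunit Gria1 from 0.0775 to 0.206 (1.41). The cystine transporter Slc7a11 went from 0.206 to 0.627 (1.60). It belongs to the integrated stress response list too, where Sesn2 (0.186 to 0.576) and the serine synthesis enzyme Psph (1.11 to 2.64) were also past the threshold among 11 compared genes.

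Of the cytosolic heat shock genes compared, 9 of 11 lay above 0, but the 2 called lower were abundant. The cytosolic chaperones Hspa8 (30.7 to 14.2, -1.11) and Hsp90ab1 (37.9 to 18.2, -1.06) were lower, the small heat shock protein Cryab higher (8.17 to 17.8, 1.12), and the other 8 of 11 were not past the threshold. Of 15 endoplasmic reticulum chaperones and unfolded protein response genes, 0 were past it and 13 lay above 0 (median 0.37), with Calr at 2.51 and 4.27. In other signalling lists the counts were near the background share, as 0 of 11 genes were called in the Notch list, 0 of 14 in the BMP and TGF-beta list and 0 of 6 in the sonic hedgehog list. In the WNT list 1 of 12 was called, the ubiquitin ligase Znrf3 (-1.21). Of 68 chromatin genes 1 was called, the histone deacetylase Hdac5 (0.688 to 0.344), and in the axon guidance list 2 of 36 were higher (Cdh11, Cntn1) and 2 lower (Cdh13, Nrp1).

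Among integrins, receptors for the matrix, Itgb1 went from 3.39 to 1.68 (-1.01) and Itgav from 0.983 to 0.475 (-1.05), while Itga7, a laminin receptor subunit, went from 0.039 to 0.111 (1.5). Map1a, a microtubule-associated protein, went from 0.0699 to 0.23 (1.72) and the glycolytic enzyme Hk1 from 0.588 to 1.27 (1.11), the only called gene of 11 in the glycolysis list. The potassium channel Kcnma1 was the only called gene of 20 ion channels and pumps (0.25 to 0.0973, -1.36). Of 8 reactive astrocyte genes, Osmr, the oncostatin M receptor, went from 0.035 to 0.119 (1.77) and Cp, ceruloplasmin, from 2.32 to 0.939 (-1.31).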
